A study of Mus musculus with 6 samples.

Results

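C-type lectins and Siglecs are families of glycan-binding proteins through which immune cells read sugars on microbes, on dying cells and on their own surface. Many of the C-type lectins of myeloid cells signal through the kinase Syk, either directly or through an adaptor with an activation motif, while others carry an inhibitory motif that recruits phosphatases. Siglecs bind sialic acid, and most of them are inhibitory. Several genes named as C-type lectins have no immune role and belong to endothelium, connective tissue or the secreted matrix.

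The genes were taken from the deposited gene table by their symbols (Clec followed by a number, Siglec followed by a number or letter, and Cd22, Cd33 and 5 Cd209 genes). The symbol rule found 46 of 54232 genes, and 35 of them had 10 or more counts over the 6 libraries. The libraries come from the tibialis anterior, a fast muscle of the shin, of C57BL6 mice aged 1 month. Libraries D51 4, D51 5 and D51 6 are from mice with exon 51 of Dmd deleted (genotype Delta 51), and 3 are from wild-type mice (WT 1, WT 2 and WT 3). Dmd encodes dystrophin, the protein that ties the cytoskeleton of the muscle fibre to the matrix. No treatment is given in the labels, and the sources used here do not say how the deletion was made. The labels call the libraries of a genotype biological replicates.

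The libraries held 15681945 to 21020353 counts. Levels below are CPM, counts set relative to library totals corrected by TMM scaling (trimmed mean of M-values), and fold changes are D51 over WT on the log2 scale with a standard error (SE). Dmd was at 47.7, 46.4 and 51.1 CPM in D51, against 235, 249 and 266 CPM in WT (log2 fold change -2.37, SE 0.0944, edgeR adjusted p = 2.77e-05). Genes of the fast muscle fibre, such as Acta1, Ckm and Myh4, were abundant in both genotypes, with summed levels of 76427 to 106490 CPM in D51 and 116687 to 120021 CPM in WT, and 0 of these 7 genes were called. With library totals alone as the scale, the median over all genes shifted by 0.35 log2 units, and changes below are to be read relative to that median.

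Of the 35 genes, 13 rose, 2 fell, 8 were tested and not called, and 12 were too low to be tested. Of all genes tested, 16.1% rose and 11.9% fell (edgeR quasi-likelihood test, adjusted p under 0.05). The 13 genes that rose were Clec7a, Clec4n, Clec4d, Clec5a, Clec4a1, Clec4a2, Clec4a3, Clec12a, Clec10a, Cd209a, Siglec1, Cd22 and Cd33, each by more than 1 log2 unit. A rise of that size was called in 9.39% of all tested genes. The test needs about 10 counts in any 3 libraries, and 8 of the 23 tested members reached this level in all D51 libraries but not in all WT libraries, so the share of tested members that rose is a description and no support. Among the 13 members that reached it in all libraries of both genotypes, 6 rose, 1 fell and 6 were not called. The median log2 fold change of the tested members was 1.67, beside -0.01 for all genes tested. It includes the members that reached the level in all D51 libraries but not in all WT libraries, so it too is a description and no support.

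**Figure D1:**
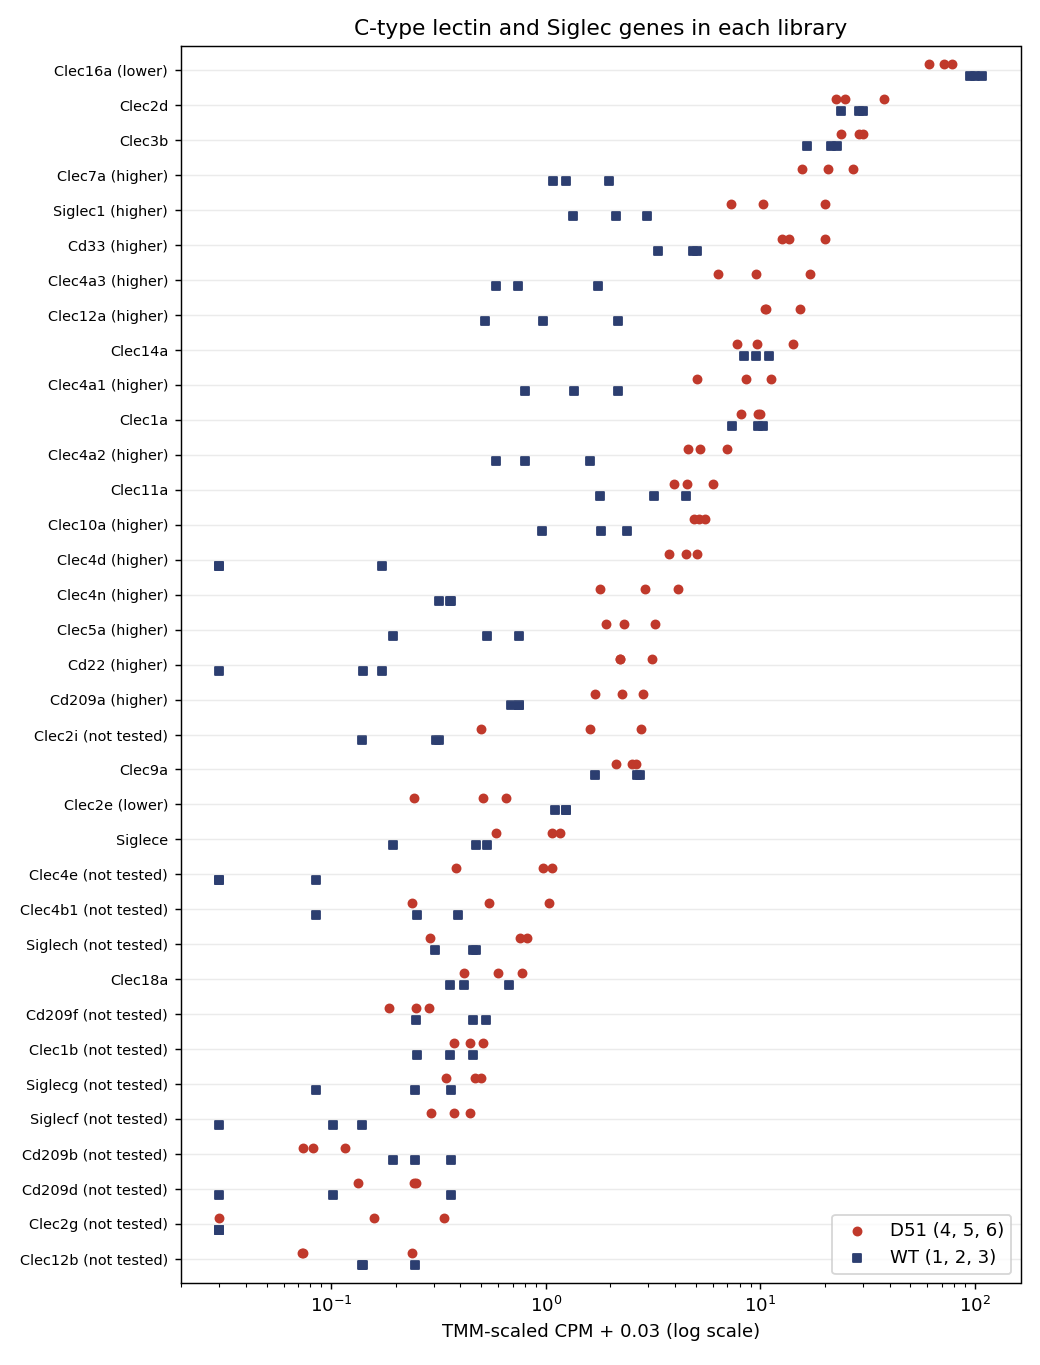
Level of each of the 35 genes in each library, as TMM-scaled CPM plus 0.03 on a log axis, with circles for the 3 D51 libraries and squares for the 3 WT libraries; the label says whether the gene was called higher, called lower or not tested. In the upper part of the plot Clec7a, Siglec1, Cd33, Clec4a3 and Clec12a have D51 circles clear of the WT squares, while Clec2d, Clec14a and Clec1a overlap.

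All D51 libraries lay above all WT libraries in 15 of the 23 tested members, where 23.8% of all tested genes did so. The 15 include the 8 members that reached the count level in all D51 libraries but not in all WT libraries. This count is therefore a description and no support. All D51 libraries lay below WT in 2 members, Clec16a and Clec2e, where 21.7% of all tested genes did so. Per kilobase of exon, the highest WT levels of members were those of Clec2d (22.7 ± 2.83 CPM per kilobase, SD, n = 3), Clec3b (20.3 ± 3.29) and Clec16a (12.1 ± 0.794). In D51 the same 3 genes led, at 23.3 ± 6.64, 27.7 ± 3.35 and 8.42 ± 1.03 CPM per kilobase. Next in D51 came Clec4a3 at 8.24 ± 4.12 and Clec7a at 7.98 ± 2.14 CPM per kilobase, which in WT stood at 0.750 ± 0.476 and 0.530 ± 0.179. The levels of Clec16a, Clec4a3 and Clec7a in D51 lay within each other's spread.

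Of 7 genes of activating pattern receptors, 4 rose, Clec9a was not called, and Clec4e and Clec1b were not tested. Clec7a and Clec9a reached the count level for testing in both genotypes. Clec4n, Clec4d and Clec5a reached it in all D51 libraries but not in all WT libraries, so the count of 4 is a description. Clec7a encodes Dectin-1, the receptor for fungal beta-glucan, which signals through Syk by a motif in its own tail. It had 15.7, 26.9 and 20.6 CPM in D51, against 1.05, 1.21 and 1.93 CPM in WT. The lowest D51 library was well above the highest WT library, and the log2 fold change was 3.94 (SE 0.283, edgeR adjusted p = 0.000297). Clec4n encodes Dectin-2, a receptor for fungal mannans that uses the Fc receptor gamma chain. It had 2.87, 4.11 and 1.77 CPM in D51, against 0.332, 0.329 and 0.286 CPM in WT, again with no overlap (3.18, SE 0.406, edgeR adjusted p = 0.00183).

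Clec4d encodes a receptor for mycobacterial glycolipid that pairs with Mincle, the product of its neighbour Clec4e. Clec4d had 4.45, 3.72 and 5.04 CPM in D51, against 0, 0 and 0.143 CPM in WT. Both of its WT counts came from WT 3, so the genotypes were far apart and the size of the change is poorly bounded. The 286 D51 counts and 2 WT counts give a ratio of 109.8, with an exact 95% counting interval of 30.1 to 911, and the fitted log2 fold change was 6.56 (SE 0.573, edgeR adjusted p = 0.000482). Without WT 3 the WT group held 0 counts and the fitted value, 9.48, is no bound. Clec4e, the Mincle gene, had 50 counts in D51 (0.941, 0.350 and 1.04 CPM) and 1 count in WT (0.0553, 0 and 0 CPM). Its ratio was 38.4, with a counting interval of 6.58 to 1546. It was too low for the test with the count filter. With no filter on low counts, where 10.1% of all genes rose and 6.22% fell, Clec4e was called (log2 fold change 4.89, SE 0.831, edgeR adjusted p = 1.29e-05).

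Clec5a, whose product MDL-1 signals through the adaptor Tyrobp, had 1.88, 3.19 and 2.28 CPM in D51, against 0.719, 0.164 and 0.501 CPM in WT. Every D51 library exceeded every WT library (2.40, SE 0.442, edgeR adjusted p = 0.00688). Clec9a encodes a receptor for actin exposed by dead cells and is a marker of the dendritic cells that cross-present antigen. Its levels overlapped, at 2.10, 2.49 and 2.60 CPM in D51 and 1.66, 2.63 and 2.72 CPM in WT (0.04, SE 0.245, edgeR adjusted p = 0.918). The dendritic markers moved unevenly. Flt3, Irf8 and Itgax were called higher, at 2.79, 1.31 and 4.82 log2 units, while Xcr1 (0.62) and Zbtb46 (-0.02) were not called. Clec1b, the platelet receptor for podoplanin, had 27 counts in D51 and 16 in WT, and its exons share 184 bases on the same strand with Clec9a, so a read there cannot be assigned to either gene with certainty. Of 6 tested markers of mast cells and platelets, 1 was called, the platelet factor gene Pf4 (2.06).

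The Clec4a genes encode the DCIR receptors of myeloid and dendritic cells, and the 3 tested of 6 genes in the Clec4a and Clec4b group rose. Of these 3, Clec4a2 and Clec4a3 reached the count level for testing in all D51 libraries but not in all WT libraries. Clec4a2, whose product carries an inhibitory motif, had 5.22, 6.96 and 4.57 CPM in D51, against 0.553, 0.767 and 1.58 CPM in WT (2.57, SE 0.357, edgeR adjusted p = 0.00244). Clec4a3 had 9.50, 16.97 and 6.34 CPM in D51, against 0.553, 0.712 and 1.72 CPM in WT (3.51, SE 0.492, edgeR adjusted p = 0.00250). Clec4a1 had 8.51, 11.2 and 5.04 CPM in D51, against 1.33, 0.767 and 2.15 CPM in WT (2.58, SE 0.402, edgeR adjusted p = 0.00372). In these 3 genes D51 5 was highest and D51 6 lowest of the D51 libraries, and none overlapped WT. Clec4b1, a gene of the related DCAR receptors, was not tested and had 0.513, 1.01 and 0.208 CPM in D51, against 0.221, 0.0548 and 0.358 CPM in WT, with overlap. Clec4a4 and Clec4b2 had 4 counts and 1 count in all. The genes of this group are close in sequence, and the sources used here do not say how reads matching several genes were counted, so the split between them is uncertain.

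Clec12a encodes an inhibitory receptor of myeloid cells that recognises uric acid crystals. It had 10.48, 15.3 and 10.54 CPM in D51, against 0.941, 0.493 and 2.15 CPM in WT. Clec12a reached the count level for testing in all D51 libraries but not in all WT libraries. The D51 libraries lay within a narrow band far above WT (3.40, SE 0.404, edgeR adjusted p = 0.00138), and without WT 3 the log2 fold change was 4.06. Its relative Clec12b had 6 counts in D51 and 7 in WT and was not tested.

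Of 8 genes of uptake receptors, 2 were tested and both rose. Clec10a encodes a lectin of macrophages and dendritic cells that binds galactose and N-acetylgalactosamine. It had 5.13, 5.47 and 4.88 CPM in D51, against 1.77, 0.931 and 2.36 CPM in WT, with no overlap (1.63, SE 0.295, edgeR adjusted p = 0.00647). Cd209a, a mouse relative of the human dendritic cell receptor DC-SIGN, had 2.22, 2.80 and 1.66 CPM in D51, against 0.719, 0.658 and 0.716 CPM in WT (1.67, SE 0.284, edgeR adjusted p = 0.00526). The other Cd209 genes were near the floor and none was tested. Cd209b had 4 counts in D51 and 12 in WT, Cd209f had 14 and 19, and Cd209d had 12 and 7. Cd209g and Clec4g had under 10 counts, and Clec4f had 0.

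Among the Siglecs, 3 of the 7 genes with 10 or more counts rose, Siglece was not called and 3 were not tested. Cd22 and Siglece reached the count level for testing in all D51 libraries but not in all WT libraries. Siglec1 encodes sialoadhesin, a macrophage receptor with no inhibitory motif. It had 10.2, 19.99 and 7.27 CPM in D51, against 2.10, 1.32 and 2.94 CPM in WT. The D51 libraries spread widely but stayed above WT (2.59, SE 0.430, edgeR adjusted p = 0.00488). Cd33, the namesake of the CD33-related Siglecs of myeloid cells, had 13.6, 19.9 and 12.6 CPM in D51, against 4.81, 3.29 and 5.01 CPM in WT (1.82, SE 0.230, edgeR adjusted p = 0.00180). It was the Siglec with the highest WT level, at 0.563 ± 0.121 CPM per kilobase, and 1.97 ± 0.507 in D51. Siglece, an inhibitory Siglec of mouse myeloid cells, had 0.556, 1.14 and 1.04 CPM in D51, against 0.443, 0.164 and 0.501 CPM in WT. Its libraries did not overlap, yet it missed the threshold (1.31, SE 0.463, edgeR adjusted p = 0.0672). It was called with no filter (1.33, edgeR adjusted p = 0.0371) and when scaled to library size alone (1.66, edgeR adjusted p = 0.0236), and in the other 10 alternatives run for it the adjusted p was 0.0504 to 0.214.

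Cd22 encodes an inhibitory co-receptor best known from B cells. It had 2.18, 3.11 and 2.18 CPM in D51, against 0.111, 0 and 0.143 CPM in WT. The genotypes were far apart, with 164 counts in D51 and 4 in WT (4.85, SE 0.525, edgeR adjusted p = 0.00105), and without WT 2 the log2 fold change was 4.24. An antisense gene covers 9.50% of its exon bases and had 0 counts. Defining B cell markers were near 0 in both genotypes, and none was high enough to be tested. Ms4a1, which encodes CD20, was at 0.0428, 0.131 and 0 CPM in D51, against 0.111, 0.164 and 0.215 CPM in WT. Cd79a, a chain of the B cell receptor, was at 0.0856, 0.306 and 0.0519 CPM in D51, against 0.111, 0.1096 and 0.0716 CPM in WT. The highest levels of Cd79b were 0.481 CPM in D51 and 0.277 CPM in WT, and those of Pax5 were 0.128 CPM in D51 and 0.111 CPM in WT. In D51 4, D51 5 and D51 6 in turn, Cd22 had 51, 71 and 42 counts. Over the same libraries Ms4a1 had 1, 3 and 0 counts, Cd79a 2, 7 and 1, and Cd79b 10, 11 and 1. At counts this low the part of B cell RNA in the level of Cd22 was not tested.

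Siglecf, known from eosinophils and alveolar macrophages, had 22 counts in D51 and 3 in WT, a ratio of 5.63 with a counting interval of 1.69 to 29.4. It was called with no filter on low counts (log2 fold change 2.39, SE 0.818, edgeR adjusted p = 0.0366). Of 5 eosinophil markers, Epx had 0 counts in all D51 libraries, Ear1 had 0 in all 6 libraries, and the 5 summed to 0.428, 0.437 and 0.571 CPM in D51, against 0.111, 0.1096 and 0.286 CPM in WT. Within that sum Ccr3 was at 0.342, 0.394 and 0.363 CPM in D51 and 0 in WT. The part of eosinophil RNA in the Siglecf counts was not tested. Siglecg had 27 counts in D51 and 10 in WT, and Siglech 40 and 19, both with overlapping libraries or intervals that include no change (0.973 to 4.80 and 0.915 to 2.96). Siglec15 had 1 count.

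**Figure D2:**
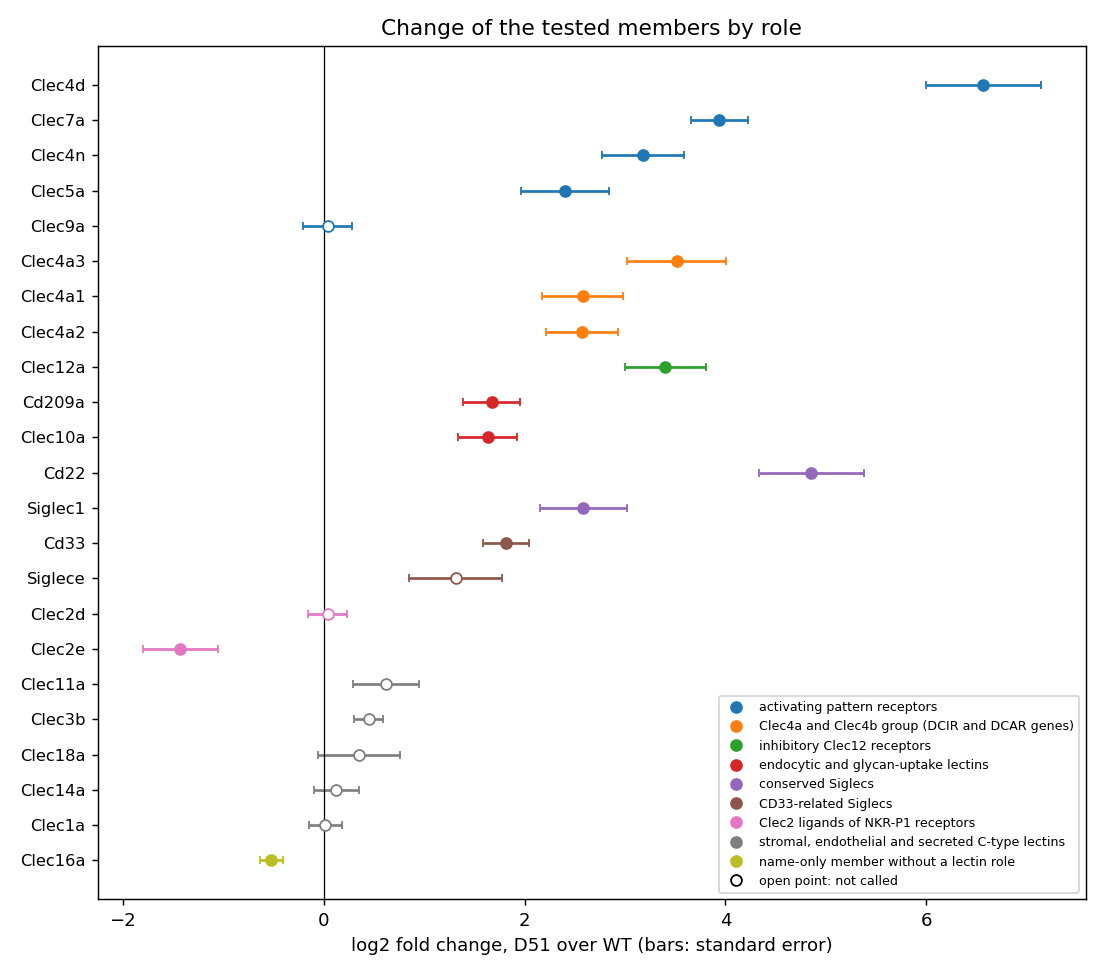
Log2 fold change, D51 over WT, of the 23 tested members, coloured by role, with bars of 1 SE and filled points for genes that passed the edgeR test at an adjusted p under 0.05. Clec4d lies furthest right at 6.56, and the endothelial, stromal and secreted members lie between 0.02 and 0.62 with open points.

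The Clec2 genes encode ligands that natural killer cells read through NKR-P1 receptors, and they did not share a direction. Clec2d, the most abundant of them, had 24.9, 37.5 and 22.5 CPM in D51, against 23.6, 30.1 and 28.9 CPM in WT, with overlap (0.04, SE 0.195, edgeR adjusted p = 0.892). Clec2e had 0.214, 0.481 and 0.623 CPM in D51, against 1.22, 1.21 and 1.07 CPM in WT. Its libraries did not overlap (-1.42, SE 0.373, edgeR adjusted p = 0.0248), but the call rests on few counts, 28 in D51 and 59 in WT. It ended without WT 1, WT 2, WT 3, D51 4 or D51 5, at log2 fold changes of -1.40, -1.41, -1.48, -1.08 and -1.50 (edgeR adjusted p of 0.0567 to 0.0845). Clec2i had 1.58, 2.76 and 0.467 CPM in D51, against 0.277, 0.1096 and 0.286 CPM in WT. D51 6 held 9 counts, which kept the gene out of the filtered test, and with no filter it was called (2.87, SE 0.509, edgeR adjusted p = 2.73e-05). Clec2g had 10 counts in D51 (3, 7 and 0 in D51 4, D51 5 and D51 6) and 0 in WT, so D51 6 equalled WT. With no filter Clec2g was not called (4.61, SE 1.73, edgeR adjusted p = 0.0631). Its D51 level was 2.56-fold a floor of 3 counts for the 3 WT libraries together, with no allowance for error in the D51 counts. Clec2l had 7 counts in all, and Clec2f, Clec2h and Clec2j had 0. Natural killer and T cell markers were scarce: 1 of 6 was tested, Cd3e (1.57, called higher), and the 6 summed to 2.05, 1.49 and 2.34 CPM in D51, against 0.277, 0.438 and 1.22 CPM in WT.

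Members of endothelium, stroma and matrix were not called. Clec14a encodes an endothelial receptor that binds the matrix protein multimerin 2. It had 7.74, 14.1 and 9.55 CPM in D51, against 8.36, 10.9 and 9.53 CPM in WT (0.13, SE 0.224, edgeR adjusted p = 0.711). Clec1a, also expressed by endothelium, had 8.09, 9.93 and 9.66 CPM in D51, against 7.36, 9.75 and 10.2 CPM in WT (0.02, SE 0.161, edgeR adjusted p = 0.940). Both overlapped between genotypes. Of 8 endothelial markers tested, Tek, Tie1, Robo4 and Cdh5 fell and 0 rose, with summed levels of 422, 431 and 344 CPM in D51, against 579.8, 541 and 488 CPM in WT. Whether Clec14a and Clec1a differ from those markers in their change was not tested.

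Clec3b encodes tetranectin, a secreted plasminogen-binding protein. It had 29.9, 23.7 and 28.8 CPM in D51, against 22.7, 16.4 and 21.2 CPM in WT. The libraries did not overlap, and the gene lay next to the threshold (0.45, SE 0.146, edgeR adjusted p = 0.0525). It was called when scaled to library size alone (0.79), with no filter (0.47), by DESeq2 (0.45), without WT 1 (0.54) and without D51 5 (0.56). Of 7 fibroblast markers, 4 rose and 0 fell, with sums of 729, 742 and 929.55 CPM in D51, against 658, 523 and 711 CPM in WT. Dcn, not called, made up most of each sum, at 466, 480 and 661 CPM in D51, against 492, 387 and 531 CPM in WT. The part of fibroblast RNA in the level of Clec3b was not tested. Clec11a, a secreted growth factor of bone, had 5.99, 3.94 and 4.52 CPM in D51, against 4.48, 1.75 and 3.15 CPM in WT, with overlap (0.62, SE 0.328, edgeR adjusted p = 0.190). Clec18a was at 0.385, 0.744 and 0.571 CPM in D51, against 0.387, 0.329 and 0.645 CPM in WT and was not called (0.35). Clec3a had 9 counts.

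Clec16a shares the name but acts in autophagy and mitophagy inside the cell. It had more counts than any other member, with 71.8, 61.2 and 78.3 CPM in D51, against 108, 99.6 and 94.97 CPM in WT. All D51 libraries were lower (-0.52, SE 0.111, edgeR adjusted p = 0.0116). Scaled to library size alone its call ended (-0.17, edgeR adjusted p = 0.174).

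Most members lie in a few genomic clusters, and neighbours in a cluster did not all change. Positions are from GENCODE release M21 on GRCm38, in which the exon length of all 46 genes equals the deposited length. The Clec4 cluster on chromosome 6 (122921848 to 123289870) holds 9 members in the order Clec4a1, Clec4a3, Clec4a4, Clec4b1, Clec4a2, Clec4b2, Clec4n, Clec4d and Clec4e. All 5 tested members there rose. Of these, Clec4a1 reached the count level for testing in both genotypes. Clec4a2, Clec4a3, Clec4n and Clec4d reached it in all D51 libraries but not in all WT libraries, so this count is a description. A second cluster on chromosome 6 (128652416 to 129472779) holds 13 members, of which 6 were tested. At its distal end Clec12a (129342691 to 129365303, forward strand) and Clec7a (129461591 to 129472779, reverse strand) rose. Between them lie Clec9a (129408862 to 129424763, forward) and Clec1a (129424772 to 129452000, reverse), which were not called.

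**Figure D3:**
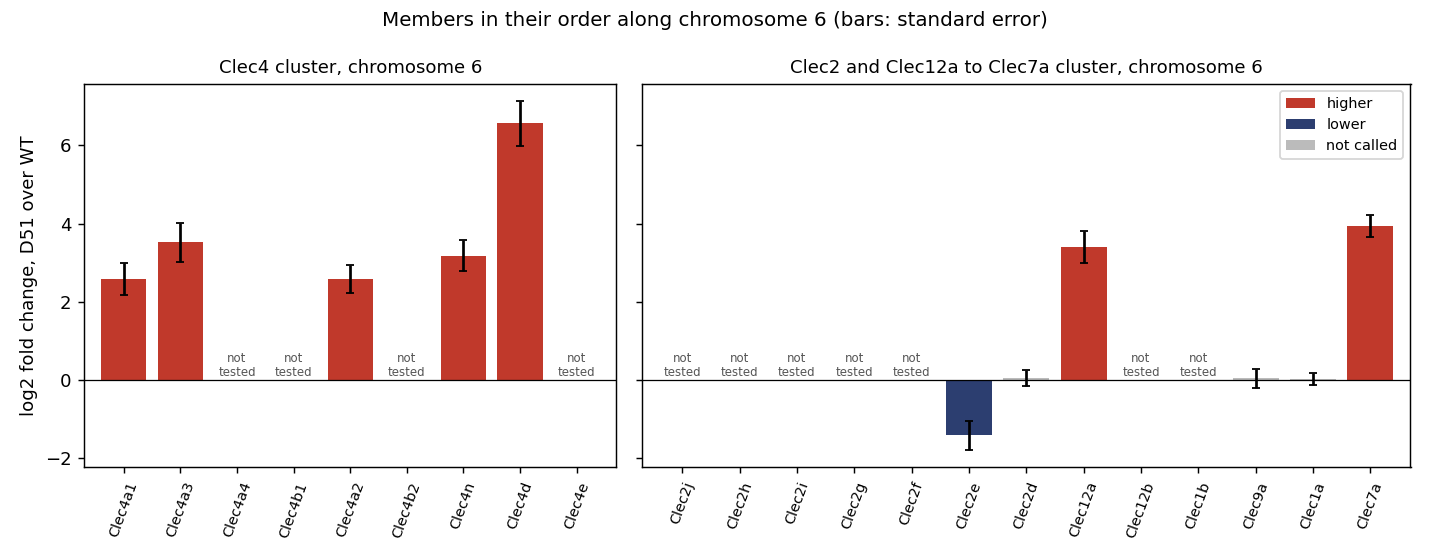
Log2 fold change, D51 over WT, of members in their order along the 2 chromosome 6 clusters, with bars of 1 SE. In the left cluster the 5 tested genes reach from 2.57 to 6.56, while in the right cluster Clec12a and Clec7a stand at 3.40 and 3.94 beside Clec9a at 0.04 and Clec1a at 0.02. Of the 5 in the left cluster, only Clec4a1 reached the count level for testing in both genotypes.

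Cd22 lies on chromosome 7 (30865402 to 30880342, reverse strand), away from the cluster of Siglecf, Siglecg, Cd33, Siglece and Clec11a on the same chromosome (43351341 to 44306902). In that cluster Cd33 was the 1 member called among 3 tested. The 5 Cd209 genes and Clec4g share a stretch of chromosome 8 (3707064 to 4137707), where Cd209a was the 1 member tested. Siglec1 lies alone on chromosome 2 (131069220 to 131086765, reverse strand) and Clec10a on chromosome 11 (70156197 to 70170834, forward strand).

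The promoter of Clec4d, from the Clec4 cluster, and those of Clec12a and Clec7a, from the second cluster, are shown as genes that rose, beside that of Clec9a, which lies in the second cluster and was not called. The sequences run from 250 bases before to 50 bases after the annotated start (RefSeq, GRCm38.p6), are written along the strand of the gene, and carry GAGGAA or its reverse complement TTCCTC in capitals. GAGGAA is the core of the box bound by PU.1, the transcription factor of the myeloid lineage.
Clec4d (chr6:123261857-123262156, forward strand): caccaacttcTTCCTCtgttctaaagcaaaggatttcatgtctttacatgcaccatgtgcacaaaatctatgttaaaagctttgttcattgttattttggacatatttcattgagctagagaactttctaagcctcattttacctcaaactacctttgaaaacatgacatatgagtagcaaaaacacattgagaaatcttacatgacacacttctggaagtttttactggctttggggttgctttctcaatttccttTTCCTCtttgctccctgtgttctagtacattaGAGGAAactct
Clec12a (chr6:129349994-129350293, forward strand): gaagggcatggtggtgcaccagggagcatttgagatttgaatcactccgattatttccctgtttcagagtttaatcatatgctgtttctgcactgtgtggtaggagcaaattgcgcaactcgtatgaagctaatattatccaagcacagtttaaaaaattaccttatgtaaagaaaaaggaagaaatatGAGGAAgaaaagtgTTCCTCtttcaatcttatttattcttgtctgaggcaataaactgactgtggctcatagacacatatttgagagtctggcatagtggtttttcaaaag
Clec7a (chr6:129472730-129473029, reverse strand): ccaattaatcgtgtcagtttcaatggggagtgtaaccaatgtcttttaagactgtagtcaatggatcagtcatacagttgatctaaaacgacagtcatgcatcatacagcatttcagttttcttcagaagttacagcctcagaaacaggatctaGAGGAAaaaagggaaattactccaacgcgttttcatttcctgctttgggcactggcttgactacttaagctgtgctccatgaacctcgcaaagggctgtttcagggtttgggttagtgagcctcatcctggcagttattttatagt
Clec9a (chr6:129408612-129408911, forward strand): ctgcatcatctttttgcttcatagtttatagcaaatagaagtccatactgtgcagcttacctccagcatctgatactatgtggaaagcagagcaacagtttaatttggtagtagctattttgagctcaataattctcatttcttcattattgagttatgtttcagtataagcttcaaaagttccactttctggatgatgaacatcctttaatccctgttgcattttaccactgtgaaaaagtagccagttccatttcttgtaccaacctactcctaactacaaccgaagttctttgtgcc
Clec4d held 3 matches, Clec12a 2, Clec7a 1 and Clec9a 0. Matches did not follow the calls in other members: Cd22, Cd209a and Clec4a2 rose and held 0, while Siglece, not called, held 3 and Clec16a, which fell, held 2. Of all 32851 promoters of this length, 28.3% held at least 1 match on either strand, so a match in a single gene is common. RefSeq gave 40 promoters for 36 of the 46 members, and 22 of these 40 held a match, as did 8 of the 12 promoters of genes that rose. The 12 include overlapping promoters of the same gene for Clec7a and for Clec4a3, and the same Clec7a match is counted more than once. Clec4n, Clec10a and Siglec1 rose and had no promoter among the 12. The longer form GAGGAAGT, which contains GAGGAA, was in 0 of the 40, beside 3.20% of all promoters. The AP-1 site TGACTCA was in 5 of the 40 (5.20% of all promoters) and the TATA box TATAAA in 11 (13.6%). A match describes these letters and is not evidence of binding.

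Of 12 listed adaptors, kinases and other signalling genes of the activating receptors, 11 were tested, 9 rose and 0 fell, with a median log2 fold change of 1.70. Of all genes tested, 16.1% rose and 11.9% fell. Vav1 and Card9 reached the count level for testing in all D51 libraries but not in all WT libraries. So did St8sia2, Spn, Ly75, Fcgr1, Csf3r, Flt3, Itgax and Cd3e, among others, in the other lists. The counts and medians of these lists are therefore descriptions and no support. Tyrobp, the DAP12 adaptor used by Clec5a, had 18.4, 29.6 and 15.7 CPM in D51, against 2.43, 0.822 and 1.72 CPM in WT (3.68, SE 0.374). Fcer1g, the gamma chain used by Dectin-2 and Mincle, had 19.6, 23.97 and 11.01 CPM in D51, against 2.60, 1.64 and 3.08 CPM in WT (2.92, SE 0.334). Both were clear of WT in every library. Syk rose by 2.30 (SE 0.239) and Vav1, an exchange factor downstream of it, by 3.13 (SE 0.383). Card9, the adaptor that links these receptors to NF-kappa-B, rose by 1.70 (SE 0.329), while its partners Bcl10 (0.39) and Malt1 (0.24) were not called.

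Phosphatases of the inhibitory receptors divided. Of 5 tested, 3 rose and 1 fell. Ptpn6, the SHP-1 gene of blood cells, had 8.30, 13.8 and 6.08 CPM in D51, against 1.16, 0.986 and 2.01 CPM in WT (2.79, SE 0.380). Inpp5d, which encodes SHIP-1, rose by 2.05 (SE 0.230) and Csk, an inhibitory kinase kept in this list, by 1.05 (SE 0.191). Ptpn11, the widely expressed SHP-2 gene, had 153, 162 and 167 CPM in D51, against 200.2, 222 and 217 CPM in WT (-0.41, SE 0.0882), and its call ended without WT 2 and under scaling to library size alone. Inpp5b was not called (-0.20).

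Genes of sialic acid synthesis and transfer, listed together with sialidases (Neu1, Neu2 and Neu3), showed no shared direction. The counts and the median below mix these actions. Of 23 gene IDs tested, 7 rose, 3 fell and 13 were not called, with a median log2 fold change of 0.06 (1 symbol, St6galnac2, stands for 2 of the IDs). St8sia2, which builds polysialic acid, had 5.30, 7.52 and 5.04 CPM in D51, against 0.387, 0.0548 and 0.286 CPM in WT (4.60, SE 0.426). St3gal4 and St3gal1 rose by 1.19 (SE 0.165) and 0.74 (SE 0.125), while St3gal3 stood at -0.51 (SE 0.0881). The IDs not called were those of Neu1, Neu2, Neu3, Gne, Cmah, Slc35a1, St3gal6, St8sia4, St8sia5, St6galnac3, St6galnac6 and both of St6galnac2, with log2 fold changes from -0.39 for St6galnac2 to 0.38 for Neu2. The number that rose was 3 without WT 2, 4 without WT 3, 3 without D51 4 and 4 without D51 5, and the number that fell was 5 without D51 6. Under scaling to library size alone 11 rose and 0 fell.

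Among genes listed as protein ligands, 2 of 5 tested rose and 2 fell. Pdpn, the podoplanin gene whose product binds the receptor of Clec1b, had 20.2, 18.2 and 13.03 CPM in D51, against 5.04, 4.05 and 6.52 CPM in WT (1.73, SE 0.219). Spn, which encodes the sialomucin CD43, rose by 1.75 (SE 0.393). Cd24a, whose product binds Siglec-G, stood at -0.46 (SE 0.0871), and Mmrn2, the ligand of Clec14a, at -0.34 (SE 0.0938). Neither fall was called under scaling to library size alone, and 1 fall was called with no filter and when any single library other than D51 6 was left out. Sap130 was not called (-0.10). It encodes a Sin3A-associated protein and not the spliceosome-associated protein SAP130 that Mincle binds, so its value does not describe a ligand of Mincle.

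C-type lectins outside the symbol rule were listed as a comparison. Of 14 tested, 8 rose and 0 fell, with a median log2 fold change of 0.76. Mrc1, the macrophage mannose receptor, had 82.8, 81.3 and 58.3 CPM in D51, against 30.2, 21.8 and 36.2 CPM in WT (1.34, SE 0.203). Layn, a hyaluronan receptor, rose by 1.61 (SE 0.217), Mrc2, a collagen receptor of mesenchymal cells, by 1.00 (SE 0.156), and Ly75 by 2.07 (SE 0.334). Those not called were Klrk1 (1.38), Cd93 (0.59), Selp (0.38), Chodl (0.17), Pla2r1 (-0.02) and Colec11 (-0.83).

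**Figure D4:**
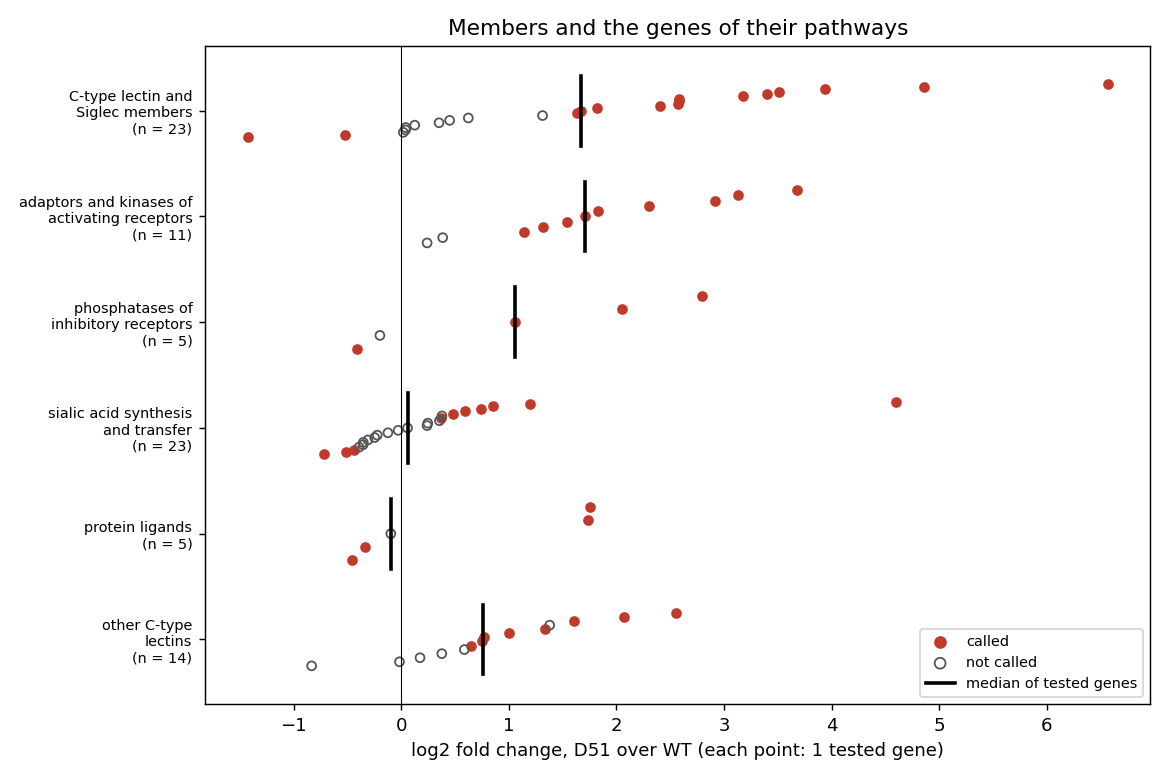
Log2 fold change, D51 over WT, of the tested members and of 5 lists of related genes, with 1 point for each tested gene, filled where called, and a black line at the median. The medians are 1.67 for the members, 1.70 for adaptors and kinases and 0.06 for sialic acid genes. The members and several of the lists include genes that reached the count level for testing in D51 only, so the medians are descriptions.

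The size of the rise varied between D51 libraries and between members. Of the 13 genes that rose, 12 had their highest D51 level in D51 5 and 9 their lowest in D51 6. In D51 6 the rise over the WT mean was a median of 70.4% of the mean rise in D51 4 and D51 5. It was lowest for Siglec1 (39.7%), Clec4a1 (42.9%), Clec4a3 (43.6%) and Clec4n (45.7%). It was close to the other libraries for Clec7a (96.7%), and Clec4d was higher in D51 6 than in the others (124%). Clec4e, not tested, was likewise highest in D51 6.

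All 10 macrophage markers rose, including Cd68 (4.08, SE 0.304), Adgre1 (3.10, SE 0.357) and Csf1r (2.11, SE 0.300). They summed to 727, 1171 and 500.5 CPM in D51, against 100.3, 62.4 and 127 CPM in WT. Lyz2 made up most of each D51 sum, at 395, 739 and 265 CPM. In D51 6 the rise of the 10 markers was a median of 46.6% of that in D51 4 and D51 5, from 28.8% for Fcgr1 to 111% for Mertk. Neutrophil markers were low: Ly6g and Mpo had 0 counts in all 6 libraries, Csf3r rose (4.06, SE 0.623), and the 6 markers summed to 5.09, 8.62 and 2.65 CPM in D51, against 0.553, 0.274 and 1.43 CPM in WT. Csf3r made up most of each D51 sum, at 3.81, 8.09 and 2.28 CPM, and no other marker of this list was tested. In whole muscle more cells of a type and more RNA per cell cannot be told apart, and the part of macrophage number in the rises of the members was not tested.

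**Figure D5:**
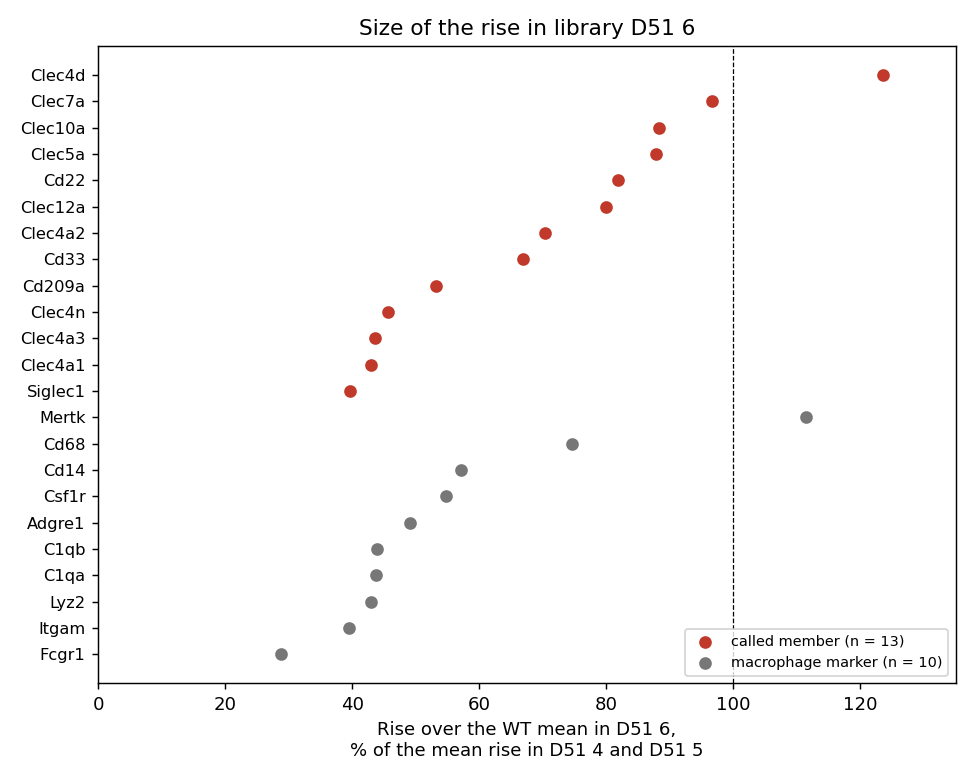
Rise over the WT mean in library D51 6 as a percentage of the mean rise in D51 4 and D51 5, for the 13 members that rose and 10 macrophage markers, with a dashed line at 100%. Siglec1 (39.7%) lies among most macrophage markers, while Clec7a (96.7%) and Clec4d (124%) lie near or beyond the line.

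The authors' deposited table lists 25 of the 46 members. At an adjusted p under 0.05 the authors' deposited table calls 18 of them higher and 1 lower, where the shares over all its genes were 19.1% higher and 18.8% lower. All 13 genes called higher here were among the 18. The authors' deposited table also calls Clec3b, Siglece, Clec2i, Clec4e and Clec4b1 higher, and it calls Clec16a lower (log2 fold change -0.55). For Clec7a the authors' deposited table gives 3.89 and for Clec4d 6.55.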

How the data were processed

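Stranded mRNA-seq libraries of tibialis anterior muscle were grouped by the sample titles, 3 D51 and 3 WT. Per the submitters' processing notes, the tools were featureCounts 1.6.0, edgeR 3.30.1 and FastQC 0.11.4, on the build GRCm38. The sources used here do not give the aligner, strand setting, annotation release or treatment of reads matching several genes. The authors deposited raw counts per gene for 54232 genes, not normalized, with exon lengths in bases as another column. The authors' deposited comparison gives log2 fold changes and adjusted p-values for 13958 genes. The deposited RPKM values were not used.

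Counts were tested in R 4.3.3 with edgeR 4.0.16 (quasi-likelihood F-test), using TMM scaling, the default filter by group (about 10 counts in 3 libraries), and p-values adjusted by Benjamini-Hochberg across the remaining 14335 genes, two-sided, called at an adjusted p under 0.05. The SE is the absolute log2 fold change over the square root of F. The common biological coefficient of variation was 0.155. No set test was run. All p-values measure the spread between these libraries. Counting intervals (exact binomial, 95%) and floors of 3 counts cover counting error only. The members, role groups and lists were chosen with earlier results of these data known. Named are all members with 10 or more counts, with each library's value for called members and those of at least 1 CPM in a group. Of each list of related genes up to 4 called members by adjusted p and the tested members not called are named, and Card9, Fcgr1, Mertk, Ly6g, Mpo, Ear1, Flt3, Irf8, Itgax, Pf4, Cd3e, Csf3r, Cd68, Adgre1, Csf1r, Lyz2, Dcn, Ccr3, Epx, Ms4a1, Cd79a, Cd79b and Pax5 were chosen after their values were seen. Of the B cell list, 1 marker is not reported here. Marker lists covered macrophages, dendritic cells, B cells, T and natural killer cells, neutrophils, eosinophils, mast cells and platelets, endothelium, fibroblasts and muscle fibres. Alternatives tried: no filter, library size alone, DESeq2 size factors, a stricter filter (20 counts), DESeq2 1.42.0, limma-voom (limma 3.58.1), a replicate block, each library left out, an adjusted p under 0.01 and a log2 fold change of at least 1. The test was tried on simulated data with known changes. Pairs of libraries of 1 genotype gave a chi-square over degrees of freedom of 8.08 to 42.9, and none was a duplicate.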

Additional observations from a re-analysis of the deposited data

How the results depend on the processing

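The 13 members that rose kept their call under all 13 alternatives run for each gene. The number called higher was 13 to 15 with 1 library left out and 18 with no filter. Over 296 values of tested members under alternatives, 273 kept their direction and side of the threshold. The number called lower, 2, was 1 when scaled to library size alone, under the stricter filter and at a log2 fold change of at least 1, 0 at an adjusted p under 0.01, and 1 to 2 with 1 library left out. Among all genes, 5394 rose and 334 fell when scaled to library size alone, and 1346 to 2662 rose and 663 to 2157 fell with 1 library left out. The lowest counts were without WT 2 (1346 and 663), and falls numbered 986 without D51 4 and 759 without D51 5. In the lists of related genes 29 rose and 6 fell, with 0 falls under library size alone, and 23 to 34 rises and 3 to 8 falls with 1 library left out. The median log2 fold change of tested members, 1.67, was 2.04 under library size alone (all genes 0.34), 1.43 with no filter, where 42 members were tested, 2.12 under the stricter filter, where 20 were, and 1.47 to 1.92 with 1 library left out. Values near 0 changed sign with 1 library left out: Clec2d ranged over -0.20 to 0.18, Clec9a over -0.17 to 0.15, Clec1a over -0.12 to 0.11 and Clec14a over -0.14 to 0.30. The cause was not tested.

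The labels number the replicates 1 to 3 in both genotypes. Deviations of same-numbered libraries correlated at 0.35 (D51 4 with WT 1), -0.01 and 0.06, and those of differently numbered libraries at -0.22 to 0.15. With 3 libraries in each genotype, these values cannot decide whether the numbers pair the libraries. With the replicate block 15 members were higher and 2 lower, Clec3b (0.45) and Clec11a (0.67) being added, and 2508 genes rose and 1960 fell over the whole table. Depth limits the 12 untested members, which had 10 to 120 counts over all libraries.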
